A study of Mus musculus with 6 samples.

Results

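The 10 Polycomb genes described here, Ezh1, Ezh2, Eed, Suz12, Jarid2, Cbx2, Cbx7, Ring1, Rnf2 and Bmi1, encode subunits of the Polycomb repressive complexes. They were chosen by name, with earlier results of these data known, as genes of the complexes whose symbols matched a probe's RefSeq identifier. They are 10 of the 18753 genes named on the array and were read by 16 of its 41174 probes. Ezh1, Ezh2, Eed and Cbx7 had 1 probe each and the other 6 genes had 2. All 16 probes were well above background on all 6 arrays, none was saturated, and all were tested.

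The cells were mouse embryonic stem cells from a line of 129/Ola mice, grown for 3 days in serum-free N2B27 medium and then collected as day 3 cultures. One group of 3 samples received the solvent DMSO and the other group of 3 received the histone deacetylase inhibitor trichostatin A (TSA), each for 24 h. The labels describe the 3 samples of a group as independent experiments and state no concentration of TSA. Each sample was hybridised to 1 single-colour Agilent array, with the DMSO and TSA arrays of the same replicate number on the same slide. The DMSO array was always at position 3 and the TSA array at position 4 of its slide, so treatment and position cannot be told apart.

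Polycomb proteins keep developmental genes silent. Polycomb repressive complex 2 (PRC2) places methyl groups on histone H3 at K27 through Ezh2 or Ezh1, with Eed and Suz12 as its obligate partners and Jarid2 as an accessory subunit that helps it reach its targets. Polycomb repressive complex 1 (PRC1) attaches ubiquitin to histone H2A through Rnf2 (also Ring1b) or Ring1, paired with a PCGF protein such as Bmi1, and in its canonical form a Cbx protein reads the PRC2 mark. In embryonic stem cells these complexes occupy many genes of later lineages, and Cbx7 is known as the main Cbx protein of the undifferentiated state, with Cbx2 taking over in differentiating cells.

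The promoters of Bmi1, Suz12, Rnf2 and Ring1 are shown because the results below turn on these genes: the first 3 had the most negative differences on 1 slide and Ring1 is the alternative catalytic partner of Rnf2. Each is the 250 bases upstream of a RefSeq transcription start on GRCm38.p6, written 5′ to 3′ on the strand of the gene. Capitals mark every match, on either strand, to the GC box GGGCGG or to the E2F-type motifs TTTCCCGC, TTTGGCGC, TTTCGCGC and TTTGCCGC.
Bmi1, chr2:18676768-18677017, plus strand: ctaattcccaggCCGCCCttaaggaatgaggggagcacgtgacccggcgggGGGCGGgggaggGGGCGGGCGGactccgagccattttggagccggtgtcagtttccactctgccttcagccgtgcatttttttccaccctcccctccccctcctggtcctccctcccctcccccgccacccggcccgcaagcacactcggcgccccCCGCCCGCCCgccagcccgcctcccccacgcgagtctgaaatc
Suz12, chr11:79992856-79993105, plus strand: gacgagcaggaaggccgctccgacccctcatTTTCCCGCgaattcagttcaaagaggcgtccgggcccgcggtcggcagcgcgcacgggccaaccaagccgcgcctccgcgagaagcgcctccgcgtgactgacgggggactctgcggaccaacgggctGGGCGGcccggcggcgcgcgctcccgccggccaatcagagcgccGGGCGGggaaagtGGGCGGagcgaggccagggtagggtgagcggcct
Rnf2, chr1:151500992-151501241, minus strand: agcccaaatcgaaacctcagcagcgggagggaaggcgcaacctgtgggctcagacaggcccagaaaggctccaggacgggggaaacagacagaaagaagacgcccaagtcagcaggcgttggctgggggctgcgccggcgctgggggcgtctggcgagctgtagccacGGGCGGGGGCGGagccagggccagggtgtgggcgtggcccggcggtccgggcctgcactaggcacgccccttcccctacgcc
Ring1, chr17:34024681-34024930, minus strand: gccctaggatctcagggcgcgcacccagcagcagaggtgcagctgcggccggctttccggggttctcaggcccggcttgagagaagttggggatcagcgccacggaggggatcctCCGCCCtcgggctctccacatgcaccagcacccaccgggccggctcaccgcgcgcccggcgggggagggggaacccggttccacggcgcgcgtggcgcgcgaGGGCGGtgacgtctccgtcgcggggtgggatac
All 4 are rich in CG dinucleotides, with 21 in the Bmi1 promoter, 37 in Suz12, 20 in Rnf2 and 30 in Ring1, against a median of 6 over all 32851 mouse promoters of the same length. Over the 10 promoters found for 9 of the genes, from 12 to 37 CG dinucleotides were counted, and no promoter of Cbx2 was matched. At least 12 were counted in 33.5% of all promoters. The GC box was in 7 of these 10 promoters and in 32.7% of all promoters. An E2F-type match was in the Suz12 promoter alone, 219 bases before the start, and in 1.86% of all promoters. The palindrome CACGTG was in the Bmi1 promoter alone among the 10, and in 6.02% of all promoters. These matches describe letters in a window and were not tested for any factor's binding.

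None of the 10 genes passed the test for a change with TSA. Levels are log2 of the processed signal minus the 75th percentile of the same array, so 0 is the 75th percentile and 1 unit is a doubling. With limma and Benjamini-Hochberg adjustment over 28158 probes at a threshold of 0.05, 197 genes rose and 8 fell among the 14529 tested, which is 1.41% of them (1.36% higher and 0.0551% lower). Of the Polycomb genes, each read by its brighter probe, 0 rose and 0 fell, and 0 were below an unadjusted p of 0.05, where 14.9% of all genes were. The lowest adjusted p among them by limma was 0.546, for Bmi1. With the slide as a replicate block the test called 485 genes (3.34%) and still 0 of the 10, with a lowest adjusted p of 0.305. The 95% intervals of the 10 differences ran from -2.40 to 1.20, which is 0.190- to 2.29-fold, so the arrays bound these differences loosely.

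**Figure D1:**
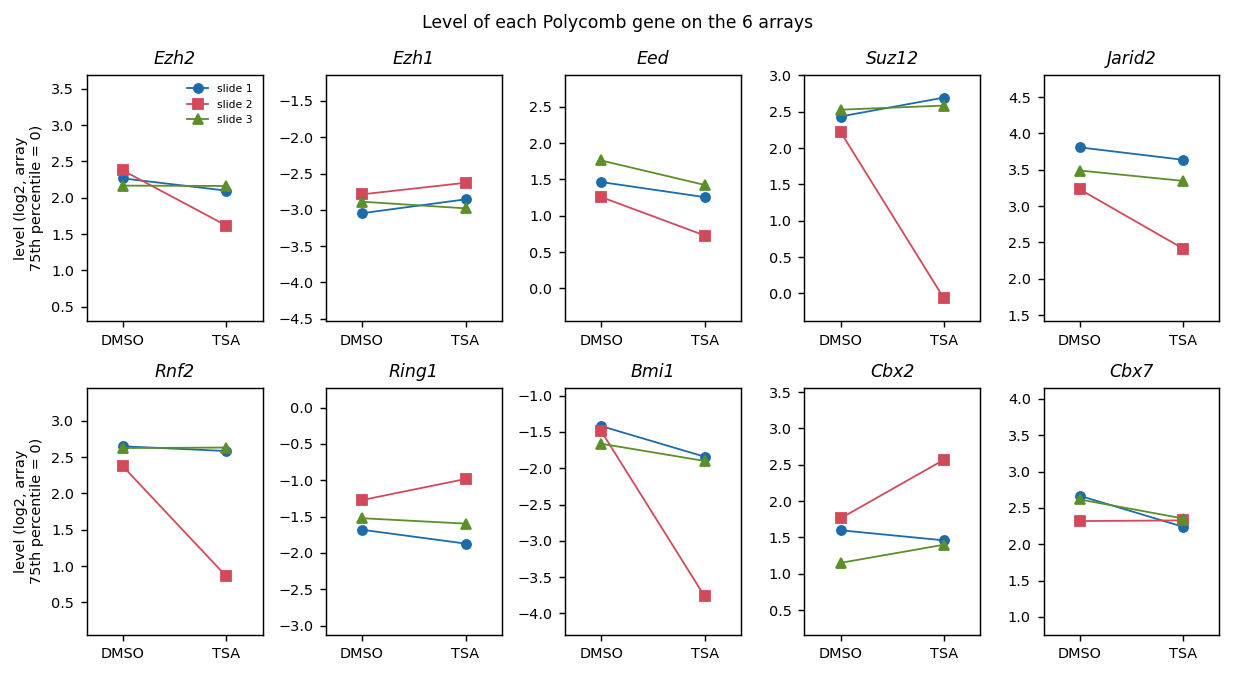
Level of each of the 10 Polycomb genes (log2, 75th percentile of the array at 0) on the DMSO and TSA array of each of the 3 slides, with a line joining the 2 arrays of a slide. On slide 2 the lines of Suz12, Rnf2 and Bmi1 differ by -2.29, -1.52 and -2.28, while those of slides 1 and 3 stay within 0.5.

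For 8 of the 10 genes the difference was nearer 0 when 1 array, TSA replicate 2, was left out. The exceptions were Cbx7, which stayed about the same, and Ring1, which moved away from 0. The share of all tested genes that moved nearer 0 was not computed, and their median went from 0.08 to -0.03. TSA replicate 2 was the dimmest of the 6, with a 75th percentile signal of 311 against 632 to 926 on the other 5. Its added control RNA read 1.41 log2 units above that of the DMSO array of its slide, after the same scaling, against 0.04 and 0.16 on slides 1 and 3. On slides 1 and 3 all 10 genes differed by less than 0.5, as 66.6% of all tested genes did. On slide 2, 3 of the 10 (Suz12, Rnf2 and Bmi1) were lower in TSA by 1 or more while within 0.5 on slides 1 and 3, a pattern of 6.77% of all genes, and Suz12 and Bmi1 were lower by 2 or more, as 2.27% of all genes were. The median of the 10 genes stood -0.56 away from the other TSA arrays on TSA replicate 2, and that of all genes 0.37 away in the other direction. The part of this array's dimness in the values was not tested. Results are therefore given with and without it: leaving it out, 460 genes (3.17%) were called and 0 of the 10, with a lowest adjusted p by limma of 0.327, and the 10 differences lay between -0.35 and 0.24.

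**Figure D2:**
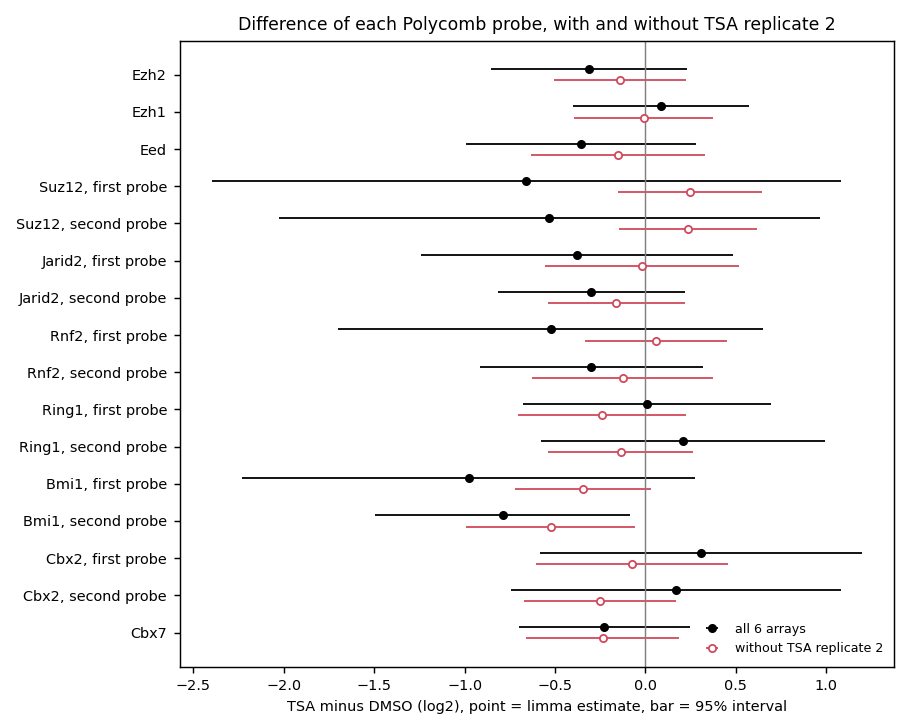
TSA minus DMSO (log2) for each of the 16 probes, with points at the limma estimate and bars at the 95% interval, from all 6 arrays (filled) and without TSA replicate 2 (open). Without that array the estimates of the 10 brighter probes lie between -0.35 and 0.24 and their intervals between -0.72 and 0.64.

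Among the catalytic subunits of PRC2, Ezh2, the main H3K27 methyltransferase of dividing cells, had levels of 2.27, 2.38 and 2.17 in the DMSO samples 1, 2 and 3 and of 2.10, 1.62 and 2.16 in the TSA samples. All 3 TSA values were below all 3 DMSO values, but the closest pair differed by less than the spread within DMSO. The means were 2.27 ± 0.10 and 1.96 ± 0.30 (SD, n = 3 each), a difference of -0.31 ± 0.23 (SE) with an adjusted p of 0.642 by limma. On slides 1, 2 and 3 the difference was -0.17, -0.76 and -0.0051, so nearly all of it lay on slide 2, and it was -0.14 ± 0.15 without TSA replicate 2. Ezh1, the alternative methyltransferase that is more prominent in resting cells, had levels of -3.05, -2.79 and -2.89 in DMSO and of -2.86, -2.63 and -2.98 in TSA. The groups overlapped, and the difference was 0.09 ± 0.20 (limma adjusted p = 0.876), turning to -0.01 ± 0.16 without TSA replicate 2.

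Eed, the subunit that binds the methylated histone tail and stimulates the enzyme, had levels of 1.46, 1.26 and 1.76 in DMSO and of 1.26, 0.73 and 1.43 in TSA. It was lower in TSA on every slide, by -0.21, -0.53 and -0.34, although the groups overlapped because DMSO 2 lay below TSA 3. The difference was -0.36 ± 0.27 (limma adjusted p = 0.646) and -0.15 ± 0.20 without TSA replicate 2. Suz12, the scaffold of the complex, had levels of 2.44, 2.22 and 2.53 in DMSO and of 2.70, -0.07 and 2.59 in TSA. The samples TSA 1 and TSA 3 were the highest of all 6 and TSA 2 was the lowest, 4.90-fold under the DMSO array of its slide. The second Suz12 probe gave the same order on slide 2, with levels of 0.43 in DMSO and -1.51 in TSA, and slide differences of 0.24, -1.94 and 0.10, and its difference of -0.53 ± 0.63 became 0.24 ± 0.16 without TSA replicate 2.

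The Suz12 difference was -0.66 ± 0.73 (95% interval -2.40 to 1.08, limma adjusted p = 0.732), and it changed sign to 0.24 ± 0.16 (-0.15 to 0.64) without TSA replicate 2. Jarid2, a protein of the JmjC family without demethylase activity that binds PRC2, had levels of 3.81, 3.23 and 3.49 in DMSO and of 3.64, 2.41 and 3.35 in TSA. It was lower in TSA on each slide, by -0.17, -0.82 and -0.14, and the groups overlapped. The difference was -0.38 ± 0.36 (limma adjusted p = 0.700) and -0.02 ± 0.22 without TSA replicate 2. The second Jarid2 probe had levels of 0.82, 0.63 and 0.64 in DMSO and of 0.61, 0.11 and 0.45 in TSA, groups that did not overlap, with a difference of -0.30 ± 0.22 (limma adjusted p = 0.638), and -0.16 ± 0.15 without TSA replicate 2.

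In PRC1, Rnf2, the main ubiquitin ligase of the complex in embryonic stem cells, had levels of 2.65, 2.37 and 2.63 in DMSO and of 2.58, 0.86 and 2.63 in TSA. As for Suz12, only TSA 2 stood low, 2.86-fold under its DMSO partner, while the slide 1 and 3 differences were -0.07 and 0.0062. The difference was -0.52 ± 0.49 (limma adjusted p = 0.695), and 0.06 ± 0.16 without TSA replicate 2. The second Rnf2 probe was less low on slide 2, at -0.49 against -1.52 for the first, a gap of 1.03 and the widest between the probes of any of the 6 genes with 2. Its other differences were -0.32 and -0.09, and its mean difference of -0.30 ± 0.26 was -0.13 ± 0.20 without TSA replicate 2. Ring1, the alternative ligase, had levels of -1.68, -1.27 and -1.52 in DMSO and of -1.87, -0.98 and -1.60 in TSA. It differed the other way from Rnf2 on slide 2, by 0.29 with the first probe and 0.71 with the second, and its mean difference was 0.0084 ± 0.29 (limma adjusted p = 0.992). Without TSA replicate 2 it was -0.24 ± 0.19.

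Bmi1, the PCGF subunit known for repressing the Cdkn2a locus, stood lowest relative to DMSO among the 10. Its first probe had levels of -1.42, -1.49 and -1.66 in DMSO and of -1.84, -3.77 and -1.90 in TSA. Every TSA value was below every DMSO value, and TSA 2 was far below the other TSA samples. The means were -1.52 ± 0.13 and -2.50 ± 1.09 (SD, n = 3 each), 1.97-fold higher in DMSO, with a difference of -0.98 ± 0.52 (95% interval -2.23 to 0.28, limma adjusted p = 0.546). The slide differences were -0.42, -2.28 and -0.24, and without TSA replicate 2 the difference shrank to -0.35 ± 0.15 (-0.72 to 0.03, limma adjusted p = 0.327).

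The second Bmi1 probe had levels of -2.81, -2.90 and -3.16 in DMSO and of -3.31, -4.28 and -3.65 in TSA, again without overlap. Its slide differences were -0.50, -1.38 and -0.49, so it was lower on every slide and less uneven than the first probe. The difference was -0.79 ± 0.29 (limma unadjusted p = 0.0329, adjusted p = 0.353), and -0.52 ± 0.19 (limma adjusted p = 0.239) without TSA replicate 2. In a fit that gave the arrays weights and the slide as a block, this probe passed the threshold with a difference of -0.52 ± 0.12 (limma adjusted p = 0.0288), as 20.9% of all tested probes did; 7.49% of all tested probes passed with a lower value. The first Bmi1 probe did not pass there (limma adjusted p = 0.202), nor did any other of the 16, and 0 of the 10 genes passed by the brighter probe where 24.1% of all genes did.

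**Figure D3:**
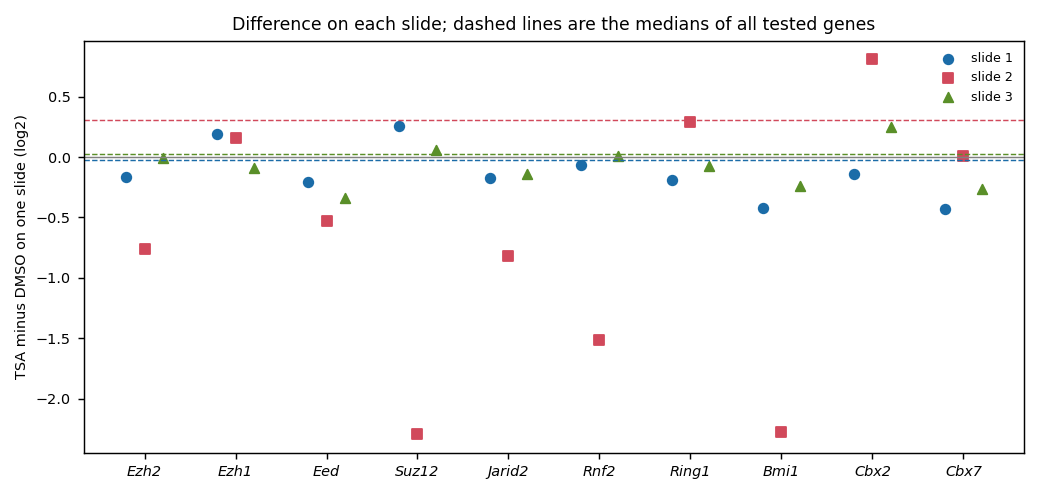
TSA minus DMSO (log2) on each slide for the brighter probe of each of the 10 genes, with dashed lines at the medians of all tested genes on slides 1, 2 and 3 (-0.03, 0.30 and 0.03). The members' medians were -0.17, -0.64 and -0.08, and the slide 2 points of Suz12, Bmi1 and Rnf2 lie lowest.

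Among the readers of the PRC2 mark, Cbx7 had levels of 2.67, 2.32 and 2.62 in DMSO and of 2.24, 2.33 and 2.35 in TSA. The TSA values were close to each other, and DMSO 2 lay among them. The difference was -0.23 ± 0.20 (limma adjusted p = 0.681) and, unlike those of Suz12, Rnf2 and Bmi1, it was near 0 on slide 2 (0.0093) and larger on slides 1 and 3 (-0.43 and -0.26). Without TSA replicate 2 it was -0.24 ± 0.17. Cbx2 had levels of 1.60, 1.76 and 1.15 in DMSO and of 1.46, 2.57 and 1.40 in TSA. Only TSA 2 lay above the DMSO samples, and the difference of 0.31 ± 0.37 (limma adjusted p = 0.757) changed to -0.07 ± 0.22 without it. The second Cbx2 probe had slide differences of -0.08, 0.91 and -0.32, again high on slide 2 only, and its mean difference of 0.17 ± 0.38 was -0.25 ± 0.17 without TSA replicate 2.

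Counted over the set, 7 of the 10 genes had a lower mean in TSA, as 41.9% of all tested genes did. Ezh2, Eed, Jarid2 and Bmi1 were lower on all 3 slides, 4 of 10 against 21.4% of all genes, and 0 were higher on all 3, against 32.6%. The groups did not overlap for Ezh2 and Bmi1, both lower in TSA, 2 of 10 against 8.29% of all genes, and for 0 did the TSA values lie wholly above, against 16.4%. The median difference of the 10 was -0.33, beside 0.08 over all tested genes, and -0.11 beside -0.03 without TSA replicate 2. In a mixed culture, fewer cells of a type and less RNA per cell cannot be told apart. With all 6 arrays the probes of the 6 genes with 2 gave mean differences of the same sign in 6 of 6, at most 0.22 apart. Without TSA replicate 2 the signs of the 2 Rnf2 probes differed, at 0.06 and -0.13. The share of same signs over all genes with several probes was not computed.

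Paralogs that occupy the same place in a complex were set against each other on each array, which removes whatever scales all probes of an array alike. The Ezh1 minus Ezh2 difference was 0.40 ± 0.28 (SE) higher in TSA (exact two-sided permutation p = 0.2, 0.6 adjusted over 3 pairs), and 0.13 without TSA replicate 2. The Cbx7 minus Cbx2 difference was -0.53 ± 0.46 in TSA against DMSO (exact permutation p = 0.4, adjusted 0.6), with -0.29, -0.80 and -0.51 on the slides and -0.16 without TSA replicate 2. Cbx7 was thus lower relative to Cbx2 on all 3 slides. With the arrays paired by slide, the exact permutation p was 0.25 for this pair, the smallest that the paired test allows, and higher for the other pairs. The Ring1 minus Rnf2 difference was 0.53 ± 0.86 (exact permutation p = 0.9, adjusted 0.9), and it turned to -0.30 without TSA replicate 2. With 3 against 3 arrays the smallest p this test allows is 0.1.

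Across the 6 arrays the levels of Suz12 and Rnf2 correlated at a Pearson r of 0.994, of Rnf2 and Bmi1 at 0.957, and of Suz12 and Bmi1 at 0.940. Without TSA replicate 2 the same values were 0.725, -0.331 and -0.792 over 5 arrays. The match of Bmi1 with Suz12 and Rnf2 thus rested on that array, while Suz12 and Rnf2 still correlated, less closely. These 3 genes were picked for their low slide 2 differences, so a high r over 6 arrays follows in part from that choice. The named genes whose levels were most like Bmi1 over the 6 arrays were Phf14 (r = 0.998), a PHD finger protein, Rcn1 (r = 0.998), a calcium-binding protein of the endoplasmic reticulum, and Cul3 (r = 0.997), the scaffold of a ubiquitin ligase. All 3 share the low TSA 2 value, with slide differences for Cul3 of -0.29, -1.85 and -0.20, and none passed the test.

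The other subunits of the complexes showed no calls either: 0 rose and 0 fell of 8 PRC2 accessory subunits, 8 other canonical PRC1 subunits and 17 variant PRC1 subunits, with median differences of -0.12, 0.07 and -0.09. Without TSA replicate 2 these medians were -0.0062, -0.07 and -0.08, so that of the canonical PRC1 list changed sign. Among the genes with the smallest p in these lists, Phf1, a PRC2 recruitment factor, differed by -0.43 ± 0.35, mostly on slide 2 (-0.93), and by -0.09 ± 0.21 without TSA replicate 2. Phc1, a polyhomeotic subunit of canonical PRC1, differed by 0.31 ± 0.19 and by 0.26 ± 0.16 without that array. Bcorl1, a corepressor in variant PRC1, differed by 0.73 ± 0.26 and was higher on all 3 slides, by 0.59, 0.97 and 0.61 (limma adjusted p = 0.335). Pcgf6, the PCGF subunit of a germline-gene repressing variant PRC1, was lower on all 3, by -0.41, -0.86 and -0.40 (-0.56 ± 0.29, limma adjusted p = 0.533, and -0.29 ± 0.19 without TSA replicate 2). Lcor differed by -0.43 ± 0.35, with -0.14, -1.34 and 0.20 on the slides, and by -0.06 ± 0.18 without TSA replicate 2. It was well above background on 5 of 6 arrays. Its TSA 2 level of -6.17 lay under -4.86, the lowest value well above background on that array. Scmh1 differed by 0.42 ± 0.34, and by 0.11 ± 0.22 without TSA replicate 2.

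The enzymes that oppose Polycomb were read in the same way. Of 7 tested genes for removing ubiquitin from H2A, 0 passed, with a median of -0.49 (-0.14 without TSA replicate 2), and Asxl1, the partner of the deubiquitinase Bap1, differed by -0.51 ± 0.22 and Mbd6 by -0.50 ± 0.21. All 5 H3K27 demethylase and acetyltransferase genes were lower on all 3 slides, which 21.4% of all genes were, with a median of -0.61 (-0.35 without TSA replicate 2), and 0 passed. Crebbp, an acetyltransferase of H3K27, differed evenly by -0.67, -0.59 and -0.58 on the slides (-0.61 ± 0.21, limma adjusted p = 0.295). Uty, the Y-linked relative of the demethylase Kdm6a, differed by -1.03 ± 0.49, with -2.03 on slide 2, and by -0.44 ± 0.17 without TSA replicate 2. It was well above background on 5 of 6 arrays. Its TSA 2 level of -6.00 lay under -4.86, the lowest value well above background on that array. Of 13 tested trithorax group genes, 0 passed, with a median of -0.13. Ash1l, a histone H3 methyltransferase, differed by -1.48 ± 0.83 with -3.11 on slide 2, and by -0.45 ± 0.25 without TSA replicate 2. It too was well above background on 5 of 6 arrays, and its TSA 2 level of -4.79 was near that lowest value. Kmt2d differed by -0.55 ± 0.28, and by -0.32 ± 0.21 without TSA replicate 2.

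**Figure D4:**
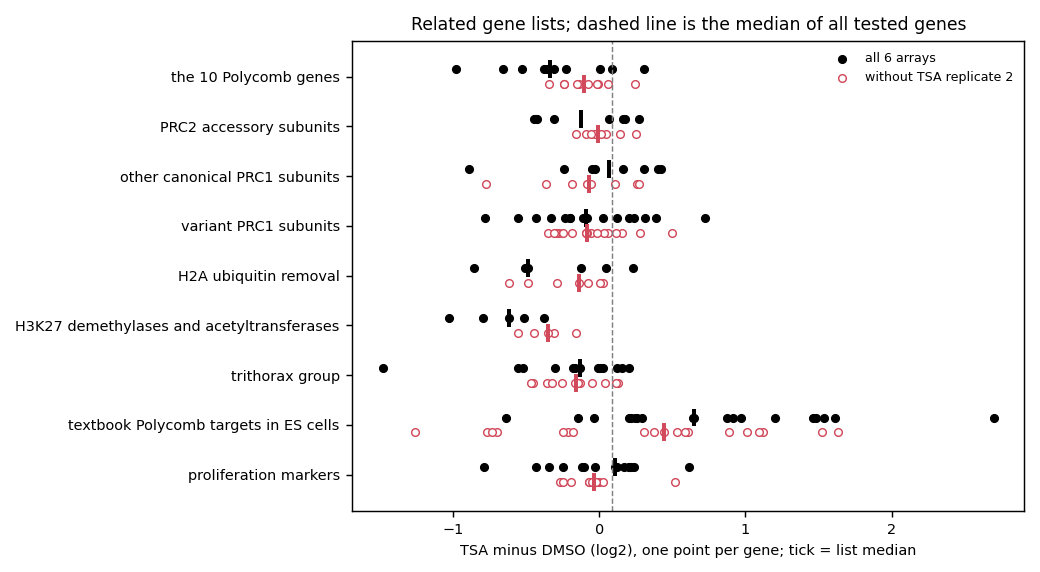
TSA minus DMSO (log2) of each tested gene in the 10 Polycomb genes and in the related lists, from all 6 arrays and without TSA replicate 2, with ticks at the list medians and a dashed line at the median of all tested genes (0.08). The textbook targets lie to the right with a median of 0.65, and the H3K27 demethylases and acetyltransferases to the left with -0.61.

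Genes known from the literature as Polycomb targets in embryonic stem cells were mostly higher in TSA. Of 28 listed, 19 were tested and 0 passed the test in either direction. By limma, 6 were below an unadjusted p of 0.05, as 14.9% of all tested genes were. Their median difference was 0.65, beside 0.08 over all genes, and 0.44 without TSA replicate 2. On slides 1, 2 and 3 the median was 0.64, 0.97 and 0.78, 16 of the 19 had a higher mean, as 58.1% of all genes did, and 12 were higher on all 3 slides, as 32.6% of all genes were. With the slide as a replicate block, 6 of the 19 rose by limma: Hand1, Cdx2, Evx1, Lhx5 and Hoxa7, which encode lineage transcription factors, and Cdkn2a, with adjusted p from 0.033 to 0.047, where 3.19% of all genes rose; without TSA replicate 2 and with no block, 0 passed. Hoxa7, for example, had slide differences of 1.37, 1.67 and 1.58. Cdx2 and Hand1 are also among the trophoblast markers. The summed level of these markers was 2.06 to 8.58 in DMSO and 3.72 to 16.7 in TSA (in units of the array's 75th percentile). Cdx2 and Hand1 are part of that sum, so it is not separate from the targets. On TSA replicate 2 its highest members were Cdx2 at 3.31 and Krt7 at 2.15 (log2). Elf5, another listed trophoblast marker, was above background on 2 arrays only and was not tested. Mixl1, a mesendoderm marker, also rose under the replicate block (limma adjusted p = 0.031). The part of such cells in the result was not tested. These genes were chosen with results of the same arrays known, so the count is a description.

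Cdkn2a and Cdkn2b, neighbouring genes for inhibitors of the cell cycle that Bmi1-containing PRC1 is known to repress, had the smallest p of that list. Cdkn2a had levels of -3.58, -3.53 and -3.93 in DMSO and of -2.35, -2.27 and -2.82 in TSA, with wide separation of the groups. The difference was 1.20 ± 0.24 (limma adjusted p = 0.087, 0.047 with the replicate block) and even over the slides, at 1.23, 1.26 and 1.11. Without TSA replicate 2 it was 1.10 ± 0.22 (limma adjusted p = 0.069). Its size was thus nearly the same without the dimmest array. The first Bmi1 probe went from -0.98 to -0.35 without that array, and the second from -0.79 to -0.52. A link between the Bmi1 and Cdkn2a values was not tested. Cdkn2b had levels of -0.996, -0.68 and -0.24 in DMSO and of -0.14, 0.51 and 0.63 in TSA, and differed by 0.97 ± 0.31 (limma adjusted p = 0.255). The proliferation markers showed 0 calls among 15 tested, with a median of 0.11 (-0.04 without TSA replicate 2), E2f2 at 0.62 ± 0.20 and E2f3 at -0.35 ± 0.24 (-0.19 ± 0.18 without that array).

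**Figure D5:**
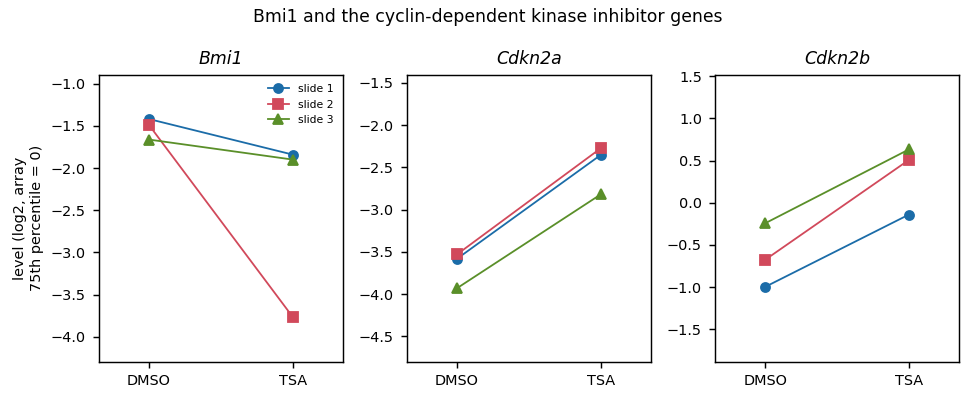
Levels (log2, 75th percentile of the array at 0) of Bmi1 (first probe), Cdkn2a and Cdkn2b on the DMSO and TSA array of each slide, with a line joining the 2 arrays of a slide. The Cdkn2a lines are nearly parallel, with differences of 1.23, 1.26 and 1.11, while the Bmi1 differences are -0.42, -2.28 and -0.24 on slides 1, 2 and 3.

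Markers of the cell types the cultures could hold were checked beside these values. All 7 pluripotency markers, 4 epiblast markers and 5 neural progenitor markers were well above background on all 6 arrays. The summed pluripotency level was 168 to 180 in DMSO and 202 to 285 in TSA, but 72.7% to 88.9% of it came from Dppa5a alone. The core factors Pou5f1 and Sox2 were lower in TSA on all 3 slides, by -0.41, -0.75 and -0.33 and by -0.35, -0.91 and -0.02, and neither passed the test. The other 5 pluripotency markers had a higher mean in TSA, as 58.1% of all genes did. Among these, Dppa5a, Zfp42 and Klf4 were higher on all 3 slides, as 32.6% of all genes were, and none passed the test. The summed neural level was 7.86 to 9.30 in DMSO and 6.12 to 7.67 in TSA. Fibroblast markers summed to 5.28 to 7.54 in DMSO and 11.0 to 15.5 in TSA, and blood markers to 0.84 to 1.06 and 2.15 to 2.76. Most of the fibroblast, blood and neural sums came from 1 gene each, Thy1, Cd34 and Nes. The differences of these genes were 0.88 ± 0.34, 1.40 ± 0.21 and -0.38 ± 0.20, so the sums mainly describe single genes. Of the blood markers, Hba-a1 and Cd34 rose (limma adjusted p = 0.037 and 0.044). Hbb-bt did not differ (-0.0012 ± 0.26, limma adjusted p = 0.996), and Ptprc, which marks white blood cells, was above background on 1 array only. Epiblast markers summed to 114 to 169 in DMSO and 125 to 161 in TSA. The summed mesendoderm level was 4.82, 26.6 and 6.69 in DMSO and 10.9, 34.9 and 9.88 in TSA, higher in TSA on every slide although the groups overlapped. With the replicate block Gata1, Col1a2 and Mixl1 also passed among these markers. The part of any of these in the Polycomb gene values was not tested.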

How the data were processed

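The members and gene lists were chosen with earlier results of these data known. Per the file headers, the deposited scanner files hold intensity values from single-colour Agilent arrays (Feature Extraction 10.7, per the submitters' processing notes), with a background-subtracted processed signal. The deposited series table holds log2 values whose normalization is not given in the sources used here; it served as an alternative. Without control and outlier-flagged spots, the log2 processed signal was scaled by subtracting each array's 75th percentile, and spots of a probe were averaged. Probes well above background on at least 3 of 6 arrays were tested (28158). Probes were named through RefSeq transcript identifiers or a matching gene symbol (27484 of 41174 had a gene). A gene is read by the brightest of its tested probes (mean over all arrays). The number of arrays limits the precision.

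Treatment was tested with limma 3.58.1 in R 4.3.3 (lmFit and eBayes, two-sided, Benjamini-Hochberg over all tested probes, threshold 0.05), a procedure tested on simulated data. Same-numbered samples share a slide, and their deviations from the group means correlated at 0.484, 0.614 and 0.585, against -0.568 to 0.0916 between slides, so the numbers pair the samples. Genes named besides the 10 members were, of each list, those past the threshold, otherwise the 2 with the smallest p, and the 3 most like Bmi1; Hand1, Cdx2, Evx1, Lhx5, Hoxa7 and the cell type markers were named after their values were seen. Alternatives covered the background correction, scaling, filter, array weights, block and each array left out.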

Additional observations from a re-analysis of the deposited data

How the results depend on the processing

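Under the 19 alternatives run, 0 of the 10 genes passed by the brighter probe, and of the 6 second probes only that of Bmi1 passed, under array weights with the replicate block. Bmi1, Ezh2, Eed, Jarid2 and Cbx7 kept the sign of their differences in each. Counts over all probes changed more: 259 were higher and 10 lower, against 127 higher with normexp and quantile scaling, 148 with quantile scaling, 137 with median centring, 142 in the authors' table and 58 (0 lower) with no filter. The replicate block gave 617 higher and 41 lower, array weights 1350 and 298, and both together 3765 and 2109. Leaving out 1 array gave 0 to 575 higher and 0 to 54 lower by limma: 575 and 54 without TSA replicate 2 and 0 without any of the other 5, where 2019 to 3327 probes had an unadjusted p below 0.05. Without slide 2, 0 were higher and 0 lower by limma, with 4995 at an unadjusted p below 0.05. The cause was not tested.

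With array weights and the replicate block, 1 variant PRC1 gene was higher and 1 lower, and the genes called lower were 2 for H2A ubiquitin removal (1 with array weights alone), 1 for the H3K27 enzymes and 2 for trithorax. Textbook targets called higher were 6 with the replicate block, 1 with array weights and 12 with both (1 lower), and 1 proliferation marker was higher with both. Over all 14529 tested genes, 464 were higher and 21 lower with the replicate block, and 962 and 170 with array weights. Under both together, 2496 were higher and 1001 lower, which is 24.1% of all genes. With the replicate block alone, the cell type markers Mixl1, Gata1, Col1a2, Cdx2 and Hand1 were also called, and no other call on the Polycomb-related lists changed.

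Signs reversed as follows, with the causes not tested. Ezh1 was -0.019 with normexp, -0.065 in the authors' table, -0.0022 with array weights, -0.0044 with weights and block, and -0.010 without TSA replicate 2. Ring1 was -0.054 with normexp, -0.036 with quantile scaling, -0.072 with median centring, -0.076 in the authors' table, -0.18 with array weights, -0.095 with weights and block, and -0.13 without slide 2. With 1 array left out, Ring1 ran from -0.24 (without TSA replicate 2) to 0.20, its second probe from -0.14 to 0.41, Suz12 from -1.14 to 0.24, its second probe from -0.96 to 0.24, Cbx2 from -0.074 to 0.51, its second probe from -0.25 to 0.46, Rnf2 from -0.83 to 0.058, and Ring1 minus Rnf2 from -0.30 to 1.01; the reversed end is the fit without TSA replicate 2 in each. Ring1 was also -0.086 without DMSO replicate 1 and -0.0067 without DMSO replicate 3. Ezh1 ran from -0.010 to 0.17 with 1 array left out. The second Ring1 probe was -0.089 with array weights and -0.049 without slide 2. With array weights, with weights and block, and without slide 2, Suz12 was 0.16, 0.036 and 0.16, its second probe 0.16, 0.072 and 0.17, and the second Cbx2 probe -0.24, -0.21 and -0.20. With array weights, Cbx2 was -0.038 and Rnf2 0.0084. Lcor was 0.057 with weights and block and 0.031 without slide 2.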
